A study of Mus musculus with 2 samples.

Results

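Muscle fibres of the limb are built from sarcomeres, in which myosin thick filaments slide along actin thin filaments under the control of troponin and tropomyosin. Calcium released from the sarcoplasmic reticulum after an action potential starts each contraction, and the nerve passes its signal to the fibre at the neuromuscular junction, where acetylcholine opens a receptor clustered by MuSK and rapsyn. The precursors of limb muscle migrate in from the somites, and they switch on these genes once the myogenic factors, such as MyoD and myogenin, have made them differentiate.

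A list of 38 genes of the sarcomere and the neuromuscular junction was read from the transcript table by gene symbol. Of these, 37 genes were found, with 162 of the 64053 transcripts, among 23157 genes in all. The remaining one, Ckm, the creatine kinase of muscle, was not analysed here. Of the 37 genes, 36 averaged 10 or more normalized reads over both libraries and are counted below, and Nrap did not.

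The libraries come from distal forelimbs of E12.5 mouse embryos, the presumptive digits, from the strain given as C57Bl6CBAF1. The wild-type library is labelled wtFL and the other invDFL, and 3 pairs of forelimbs were dissected according to the series text. The invDFL embryos were homozygous for HoxD Inv(TpSB1-Itga6), an allele in which a 2.4 Mb segment of chromosome 2 next to the HoxD cluster is inverted, moving distal digit enhancers away from Hoxd13. With 1 library per genotype there was no replicate, so the differences below have no replicate check, no test was made between genotypes, and every difference between the pools is confounded with genotype.

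The libraries held 9280660 and 9466154 reads. The forelimb gene Tbx5 had 1663 and 1959 reads and the distal limb gene Hoxa13 1084 and 1208, against 44 and 29 for the hindlimb gene Pitx1. Xist, expressed from the inactive X chromosome, had 2607 reads in wild type against 13, while 4 Y-linked genes together went from 826 to 2820 reads. The sex of the embryos thus differed between the pools and cannot be told apart from genotype in any value below.

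All 37 genes had a higher value in the inversion library, Nrap included, against 46.6% of all genes counted. The median log2 ratio of inversion over wild type, taken with a pseudocount of 1, was 1.23 over the 36 counted genes, against -0.02 over all 16756 genes averaging 10 or more. The ratios ran from 0.09 for Tpm2 to 2.97 for Cacna1s, and the middle of the list lay between 0.94 and 1.64 (25th and 75th percentiles). The inversion value was 2-fold or more above wild type for 25 of the 36 genes, against 3.99% of all genes, and 2-fold or more below it for 0, against 0.483%. For 5 of the 36 it was 4-fold or more above, against 0.674% of all genes. Among the 10035 genes whose mean lay in the range of the muscle genes, from 15.9 to 561 normalized reads, 4.88% were 2-fold or more above wild type and 0.787% 4-fold or more, and the median log2 ratio was 0.0033. The 95% interval of a ratio, an exact Clopper-Pearson interval that covers counting error only, lay above 0 for 32 of the 36 genes, against 16.7% of all genes, and below 0 for none of them, against 13.0%. In an exact two-sided binomial test on reads, which compares these libraries and not the genotypes, 29 of 36 were higher at an adjusted p under 0.05 (12.3% of all genes) and 0 lower (7.87%).

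**Figure D1:**
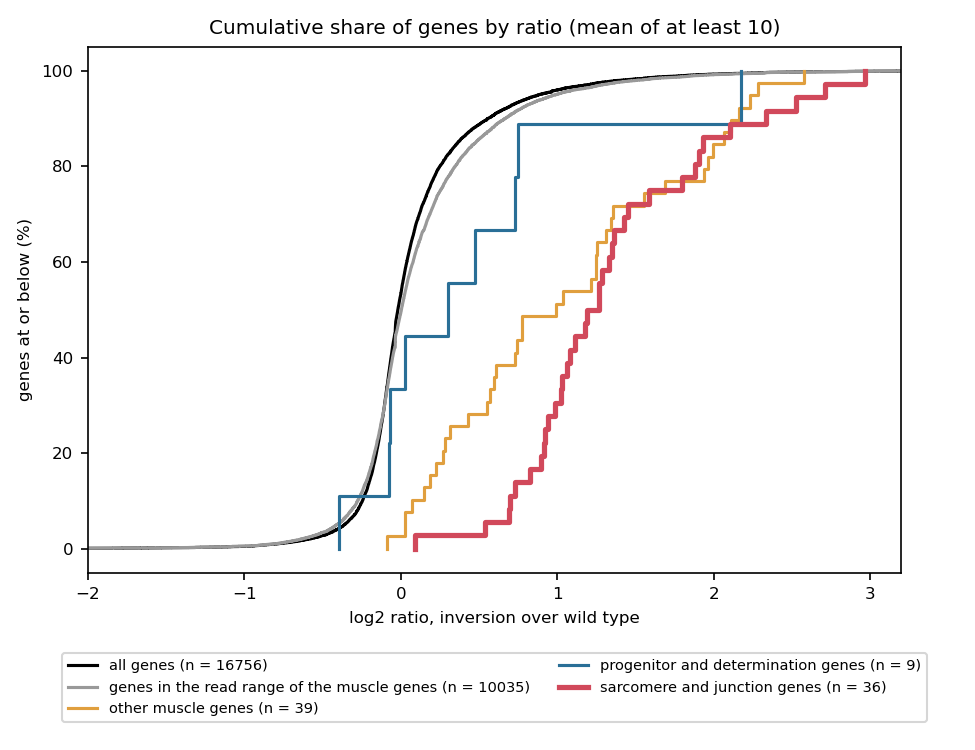
Cumulative share of genes (y axis, percent) at or below each log2 ratio of inversion over wild type (x axis), for genes averaging 10 or more normalized reads. The curve of the 36 sarcomere and junction genes lies to the right of the curves of all genes and of genes with similar read numbers, with a median of 1.23, while the 9 progenitor and determination genes lie between them with a median of 0.30.

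Together the 37 genes drew 2992 reads in wild type against 6914 in the inversion. Of 10000 reads in the library, 3.22 fell on them in wild type (95% interval 3.11 to 3.34) and 7.30 in the inversion (7.13 to 7.48). The summed normalized reads were 2.25-fold higher, or 2.51-fold without Tpm2, a gene that smooth muscle and other cells also transcribe. In RNA from whole tissue, more muscle cells and more of these transcripts per cell cannot be told apart.

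**Figure D2:**
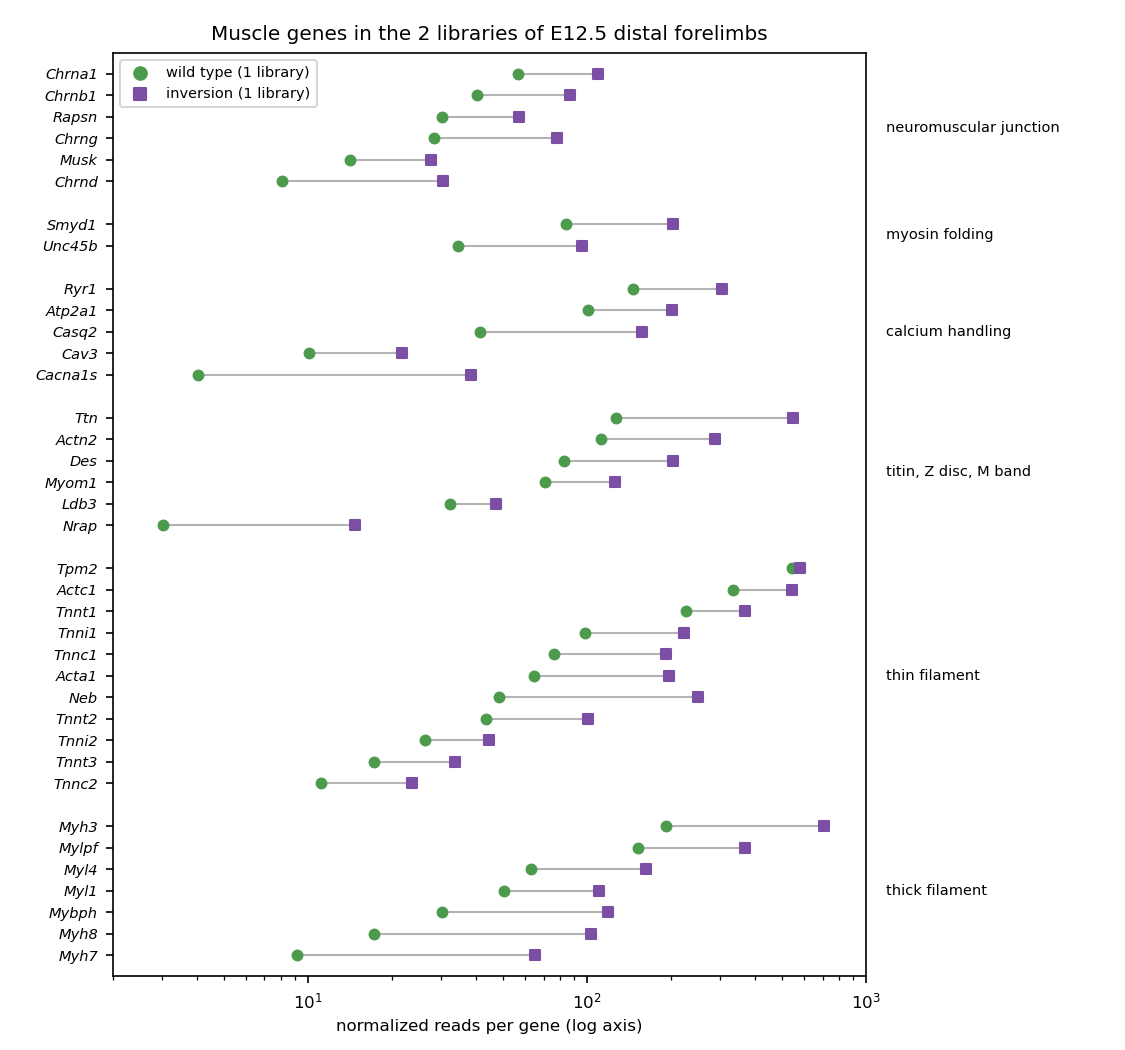
Normalized reads of each of the 37 genes (x axis, log scale) in the wild-type library (green circles) and the inversion library (purple squares), grouped by role. Each purple square lies to the right of its green circle, and for Tpm2 the symbols nearly coincide (543 and 579).

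All 7 genes of the thick filament and its partners were at least 2-fold higher, against 3.99% of all genes. Their median log2 ratio was 1.88. Among genes averaging 100 or more normalized reads only Myh3, Myl4 and Mylpf remained, with a median of 1.36, that of Myl4. With the same filter the framework genes described below, then only Ttn, Actn2 and Des, had a median of 1.35. Myh3, the myosin heavy chain of embryonic fibres, counted 706 normalized reads against 191 in wild type (log2 ratio 1.88, 95% interval 1.65 to 2.12). Myh8, the perinatal heavy chain, had 17.2 and 104 normalized reads (2.52, 1.84 to 3.42). For Myh7, the slow heavy chain shared with the heart, the values were 9.12 and 65.2 (2.71, 1.83 to 4.03). Both Myh8 and Myh7 thus had few reads in wild type, and their intervals span more than a doubling. The heavy chain genes are close copies of each other, and how reads that fit several genes were assigned is not given in the sources used here, so the split between them is uncertain. The light chains were lower in ratio than the heavy chains. Mylpf, the regulatory light chain of fast fibres, had 153 and 369 normalized reads (1.27, 0.996 to 1.55), Myl4, the embryonic and atrial light chain, 62.8 and 163 (1.36), and Myl1, the fast essential light chain, 50.6 and 111 (1.11). Mybph, a myosin-binding protein, had 30.4 and 119 (1.93, 1.38 to 2.59).

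The thin filament genes had a lower median log2 ratio, 1.02, and a wider range. Of the 11, 6 were at least 2-fold higher, against 3.99% of all genes. Tpm2, which encodes beta-tropomyosin, was the lowest gene of the whole list, with 543 and 579 normalized reads, a log2 ratio of 0.09 and a 95% interval of -0.08 to 0.26 that includes 0. Its transcripts differed in direction, since 1 protein-coding transcript had 147 and 113 reads while another had 129 and 163. The 2 striated actins differed: Actc1, the cardiac actin that embryonic skeletal muscle also uses, went from 332 to 540.2 normalized reads (0.70, 0.50 to 0.90), and Acta1, the skeletal actin, from 64.8 to 197 (1.59, 1.19 to 2.03). These intervals do not overlap, but the coding sequences of both genes are nearly the same and their reads may have been split between them.

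The 3 slow troponin genes were counted more deeply, with 75 to 224 reads in wild type against 11 to 26 for the 3 fast ones. Of the slow genes, Tnnt1 had 227 and 367 normalized reads (0.69, 0.45 to 0.94), Tnni1 98.2 and 223 (1.18) and Tnnc1, which the heart also uses, 75.9 and 193 (1.33, 0.95 to 1.75). Of the fast genes, Tnnt3 had 17.2 and 33.6 (0.92, 0.08 to 1.90), Tnni2 26.35 and 44.45 (0.73, 0.03 to 1.51) and Tnnc2 11.1 and 23.7 (1.02, 0.0050 to 2.27). Tnnt2, the cardiac troponin T of embryonic muscle, had 43.5 and 101 (1.19). The slow and fast ratios overlapped in range. Neb, which encodes the long actin-binding protein nebulin, stood above them, with 48.6 and 249 normalized reads (2.33, 1.91 to 2.83).

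Genes of the sarcomere's framework gave a median log2 ratio of 1.28. Of the 5 counted, 3 were at least 2-fold higher, against 3.99% of all genes. Ttn, the giant spring protein titin that spans from the Z disc to the M band, had 127 and 548 normalized reads (2.11, 1.83 to 2.41). The reads of Ttn were spread over 20 overlapping transcripts, and the one with the highest mean had 14 and 167 reads while another had 52 and 56, so that only the sum is read here. Actn2, the Z-disc alpha-actinin, had 112 and 287 normalized reads (1.35), Des, the muscle intermediate filament desmin, 83.0 and 203 (1.28), and Myom1, the M-band protein myomesin, 70.9 and 126 (0.83, 0.40 to 1.28). Ldb3, a Z-disc PDZ protein, was the second lowest gene of the list with 32.4 and 47.4 (0.54), and its interval of -0.13 to 1.24 includes 0. Nrap, which anchors the ends of young myofibrils, had 3 and 15 reads (interval 0.46 to 4.72).

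Genes of excitation-contraction coupling gave a median log2 ratio of 1.06. Of the 5, 4 were at least 2-fold higher, against 3.99% of all genes. Cacna1s, the voltage sensor of the T tubule, had 4 reads in wild type against 39 (log2 ratio 2.97, 1.78 to 5.20), the highest ratio of the list. With a pseudocount of 5 its ratio was 2.26, below those of Myh7 (2.31) and Myh8 (2.29). Its partner Ryr1, the calcium release channel, was counted more deeply, with 146 and 305 normalized reads (1.06, 0.78 to 1.36), and Atp2a1, the calcium pump of fast fibres, had 101 and 201 (0.99). The intervals of Cacna1s and Ryr1 do not overlap, although both proteins act in one complex. Casq2, which binds calcium in the reticulum, had 41.5 and 158 (1.90, 1.43 to 2.46), and Cav3, the muscle caveolin, 10.1 and 21.7 (1.03, -0.04 to 2.34). The myosin chaperone Unc45b had 34.4 and 95.8 (1.45), and the methyltransferase Smyd1, which also serves myosin assembly, 84.0 and 203 (1.27).

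**Figure D3:**
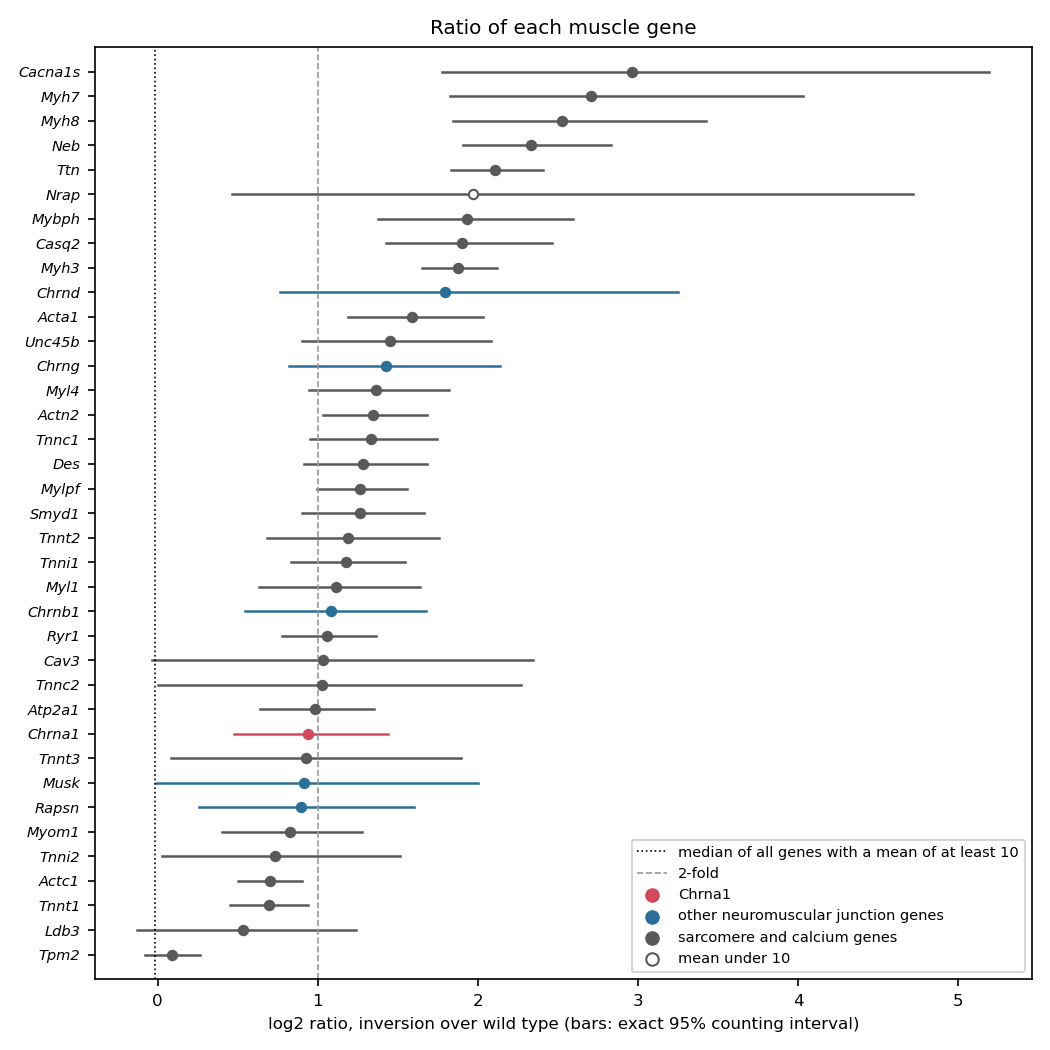
Log2 ratio of inversion over wild type (x axis) of each of the 37 genes, with exact 95% intervals as bars; the dotted line is the median of all genes (-0.02) and the dashed line marks 2-fold. Chrna1 (red, 0.94) has 9 genes below it, and the other junction genes (blue) lie both below and above it. The long bars belong to genes with few reads such as Cacna1s.

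Per kb of transcript, the measure on which levels can be compared between genes, the same 5 genes led in both libraries, in another order. In wild type the 5 highest were Tpm2 (341 normalized reads per kb), Tnnt1 (254), Mylpf (249), Actc1 (225) and Tnnc1 (113). In the inversion Mylpf was first (600.5), followed by Tnnt1 (411), Actc1 (367), Tpm2 (364) and Tnnc1 (286). For Tnnc1 only 57.0% of the reads fell on transcripts with a known length. Thus thin filament and light chain genes led the 37 listed genes in both libraries, although other cells also transcribe Tpm2. Junction genes were low, and Chrna1 had 12.9 and 24.99 normalized reads per kb.

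The log2 ratio showed no relation to the number of reads (Spearman rho -0.02 over the 36 genes), but it was higher for genes with long transcripts (rho 0.43). The same correlation was 0.12 over the 9618 genes in the range of the muscle genes that have a known length. These are correlations across genes of the same libraries, given as a description. Ttn, Neb, Myh3, Myh7, Myh8 and Cacna1s have long transcripts and high ratios, whereas Ryr1, at 15352 nt, had a ratio below the median of the list.

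The junction genes were compared with Chrna1, which encodes the alpha subunit of the muscle acetylcholine receptor and is the only gene of the list that lies in the inverted segment. Chrna1 has 1 transcript in the table and went from 56 to 111 reads, or 56.7 to 109.6 normalized reads. Its log2 ratio was 0.94 with an interval of 0.47 to 1.44. The 5 other junction genes, which lie on other chromosomes or elsewhere on chromosome 2, were also higher. Chrnb1, the beta subunit, had 40.5 and 86.9 normalized reads (1.08, 0.55 to 1.68). Chrnd, the delta subunit, had 8.10 and 30.6 (1.80, 0.77 to 3.25), and Chrng, the gamma subunit of the fetal receptor, 28.35 and 78.0 (1.43, 0.82 to 2.14). The adult subunit that replaces it, Chrne, had 3 reads in wild type against 0, too few for a ratio. Musk, the receptor kinase that agrin activates, had 14.2 and 27.65 (0.92, -0.01 to 2.003), and Rapsn, the scaffold of the receptor clusters, 30.4 and 57.3 (0.89, 0.26 to 1.60). The interval of Chrna1 overlapped that of each of them, and the median of the 5 was 1.08.

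In the whole list Chrna1 had 9 genes below it and 26 above. Its log2 ratio lay 0.33 below the median of the other 35 genes (1.27). The intervals of 28 of these 35 genes overlapped that of Chrna1, and the ratios of 23 lay within it. Wide intervals from few reads, such as that of Cav3 (-0.04 to 2.34), overlap easily. The share of all genes that overlap it was not computed. Intervals of 6 genes lay above that of Chrna1, namely Myh3, Ttn, Neb, Myh8, Myh7 and Cacna1s, and that of Tpm2 lay below it. The other 5 genes of the list on chromosome 2, Actc1, Neb, Rapsn, Tnnc2 and Ttn, had a median of 1.02. At this depth Chrna1 was not distinguishable from most of the muscle genes that lie outside the inversion.

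Among the genes it travels with, Chrna1 had the highest ratio. The 14 other genes listed here between Itga6 and the C-DOM regulatory landscape had a median log2 ratio of -0.05. They ranged from -0.47 for Rapgef4 to 0.72 for Sp9. Of these 14 genes, 0 differed by 2-fold or more, which is near the share over all genes (3.99% higher and 0.483% lower). Its neighbours on either side, Wipf1 and Chn1, had ratios of -0.09 and -0.05. The interval of Chrna1 lay above those of 13 of the 14 genes and overlapped that of Sp9 alone.

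**Figure D4:**
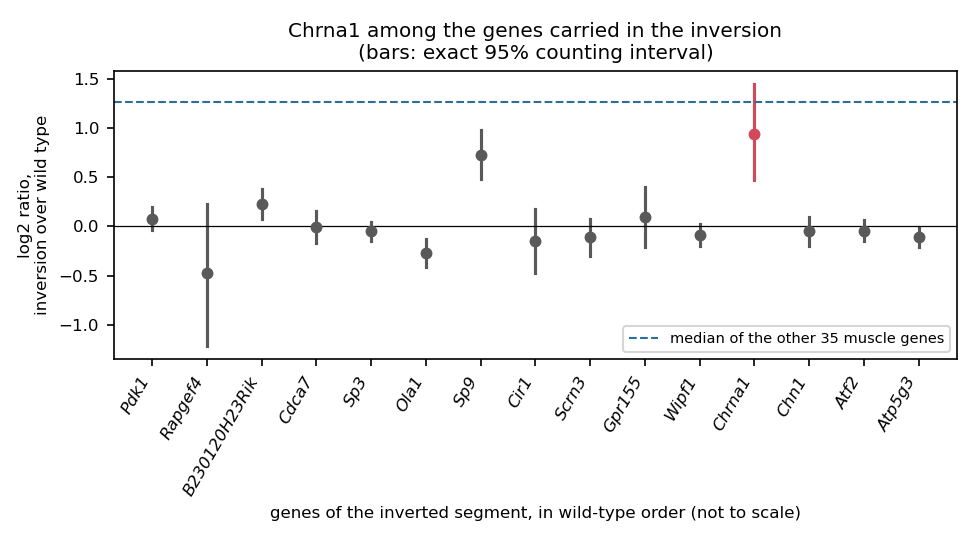
Log2 ratio of inversion over wild type (y axis) of 15 genes of the inverted segment in their wild-type order (x axis, not to scale), with exact 95% intervals as bars. Chrna1 (red, 0.94) stands 0.99 above the median of the other genes of the segment and 0.33 below the median of the other muscle genes (dashed line, 1.27).

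The promoters of these genes were read from RefSeq (GRCm38.p6) as windows of 250 bases before to 50 bases after the start. Of the 36 counted genes, 31 had such a window, and Chrnd, Neb, Rapsn, Tnni2 and Tnnt3 did not. The E box, CANNTG, is the motif bound by MyoD, myogenin and other basic helix-loop-helix factors. It was present in 27 of 31 genes (87.1%), against 67.8% of the 10355 counted genes with a window, the background used for the forms below. Of all 27025 genes with a window, 74.99% had it, and a gene with several windows was counted once if any matched. The E box form CAGCTG was in 14 of 31 (45.2%) against 18.5%, and the letters CAGGTG or CACCTG in 9 of 31 (29.0%) against 21.3%. Both forms are also counted under CANNTG, which reads the same on both strands. The CArG box, bound by serum response factor, was in 4 of 31 (12.9%, against 1.64%), and the MEF2 motif in 3 of 31 (9.68%, against 2.20%), each searched on both strands. A match is a description of the letters and was not tested for binding.

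The windows of 4 junction genes are shown because Chrna1 is compared with them, and those of Cacna1s and Tpm2 because they hold the highest and the lowest ratio. Capitals mark CANNTG. In Chrna1 these lie 92, 73 and 44 bases before the start, and the first and last read CAGCTG.
Chrna1, chr2:73580289-73580588, minus strand: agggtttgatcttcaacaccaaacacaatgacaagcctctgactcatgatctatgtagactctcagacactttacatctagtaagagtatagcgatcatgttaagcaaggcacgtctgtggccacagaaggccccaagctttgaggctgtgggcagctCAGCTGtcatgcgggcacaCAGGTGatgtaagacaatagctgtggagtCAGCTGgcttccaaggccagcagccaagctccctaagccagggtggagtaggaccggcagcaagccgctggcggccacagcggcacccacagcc
Chrng, chr1:87205561-87205860, plus strand: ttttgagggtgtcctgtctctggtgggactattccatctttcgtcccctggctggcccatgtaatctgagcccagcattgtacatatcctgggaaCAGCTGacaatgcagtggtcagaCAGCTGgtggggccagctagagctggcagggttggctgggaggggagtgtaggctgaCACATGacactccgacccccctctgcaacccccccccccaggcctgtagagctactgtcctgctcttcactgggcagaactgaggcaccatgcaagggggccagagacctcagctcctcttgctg
Chrnb1, chr11:69795888-69796187, minus strand: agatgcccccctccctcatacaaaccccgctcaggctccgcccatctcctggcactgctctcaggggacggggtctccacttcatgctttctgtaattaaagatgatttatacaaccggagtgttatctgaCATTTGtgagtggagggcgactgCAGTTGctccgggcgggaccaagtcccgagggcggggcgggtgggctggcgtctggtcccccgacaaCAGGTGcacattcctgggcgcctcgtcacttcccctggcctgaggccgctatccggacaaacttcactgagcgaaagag
Musk, chr4:58285712-58286011, plus strand: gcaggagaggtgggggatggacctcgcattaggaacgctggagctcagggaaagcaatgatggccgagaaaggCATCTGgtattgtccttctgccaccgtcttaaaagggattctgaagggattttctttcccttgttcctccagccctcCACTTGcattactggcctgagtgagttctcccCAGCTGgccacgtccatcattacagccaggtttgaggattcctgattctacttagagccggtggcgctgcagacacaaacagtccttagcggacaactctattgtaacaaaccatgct
Cacna1s, chr1:136052561-136052860, plus strand: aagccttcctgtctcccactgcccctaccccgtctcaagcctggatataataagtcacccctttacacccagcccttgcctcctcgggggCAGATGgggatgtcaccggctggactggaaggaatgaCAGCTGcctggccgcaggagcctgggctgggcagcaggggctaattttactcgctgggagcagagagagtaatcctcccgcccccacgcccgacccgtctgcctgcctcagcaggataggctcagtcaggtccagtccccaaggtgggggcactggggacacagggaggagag
Tpm2, chr4:43523505-43523804, minus strand: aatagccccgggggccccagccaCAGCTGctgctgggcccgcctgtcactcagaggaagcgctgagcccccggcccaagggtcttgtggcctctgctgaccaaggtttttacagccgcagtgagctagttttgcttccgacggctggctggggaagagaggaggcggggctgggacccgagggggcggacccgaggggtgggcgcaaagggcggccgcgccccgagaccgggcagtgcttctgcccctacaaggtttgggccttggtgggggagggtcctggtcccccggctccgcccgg
Each of the 4 junction genes had 3 matches and Cacna1s 2, while the only one of Tpm2 lay 227 bases before its start. Myh3, whose window is not shown, also had only 1 match, CAGTTG, with a log2 ratio of 1.88. CAGCTG was found in the window of the lowest as well as the highest gene.

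Other muscle genes gave a similar picture with more spread. Of 49 further genes of the sarcomere, calcium handling and the junction that were found, 39 had a mean of at least 10, and 19 of these lay 2-fold or more above wild type while 0 lay as far below (background 3.99% and 0.483%). Their median log2 ratio was 0.99. The highest were Myom2, an M-band protein (9 and 60 reads, 2.58), Myh2, a fast heavy chain (6 and 34 reads, 2.29), and Myot, the Z-disc protein myotilin (4 and 23 reads, 2.23). The lowest were Pgam2, a glycolytic enzyme (138 and 133 reads, -0.09), Agrn, which encodes agrin (3743 and 3901 reads, 0.02), and Srl, a protein of the sarcoplasmic reticulum (788 and 824 reads, 0.03). Agrn and the agrin receptor gene Lrp4 (845 and 909 reads, 0.07), which had many reads in these limbs, are also transcribed beyond muscle. Which cells gave their reads here was not tested. With a mean of at least 100 the median of the list was 0.28.

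The genes that come before differentiation had lower ratios. Of 9 counted progenitor and determination genes, 1 was at least 2-fold higher (3.99% of all genes), and the median log2 ratio was 0.30. Myog, the myogenin gene, had 155 and 268 reads (0.75, 0.46 to 1.05). For Myod1, with 136 and 172 reads, the ratio of 0.30 had an interval, -0.03 to 0.64, that spans 0. Pax3, which marks migrating precursors, had 26 and 20 reads (-0.40), and Pax7, which marks fetal progenitors, 7 and 36 reads (2.18). The genes of this list are few, and no test was made of its difference from the sarcomere genes.

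Markers of other cell types were read in the same way. The cardiac markers Nppa, Nppb and Myl7 had between 0 and 2 reads in each library. The cardiac list of 7 genes summed to 36 and 115 reads, most of them from Myh6, Sln and Tnni3. These 3, the only ones counted, were each at least 2-fold higher, against 3.99% of all genes, with a median of 1.93. Sln and Tnni3 also stand in the list of other muscle genes. Of 8 smooth muscle genes 0 differed by 2-fold or more (median 0.26, summed reads 1115 and 1323). Of 6 cartilage genes 2 were at least 2-fold higher, against 3.99% of all genes. They were Comp (23 and 125 reads, 2.36) and Matn1 (100 and 331 reads, 1.68). The cartilage median was 0.62, with summed reads of 12213 and 15493. Intervals of 5 of the 6 lay above 0 (16.7% of all genes), and Sox9 was the 1 lower gene (-0.09). The 3 tendon genes (median 0.25, 1076 and 1294 reads) and 5 genes of Schwann and neural crest cells (median 0.31, with 1027 and 1128 reads over 6 genes) differed by 2-fold or more in 0 cases. All 9 red cell genes (median -0.16, summed reads 30927 and 27382) and all 5 endothelial genes (median -0.12, 3630 and 3437) were lower in the inversion library, 0 of them 2-fold. Of all genes, 46.6% had a log2 ratio above 0, 3.99% were at least 2-fold higher and 0.483% as far lower. Counts of 0 at 2-fold in lists this small are near those shares. Whether the differences in these cell lists play a part in the muscle result was not tested.

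**Figure D5:**
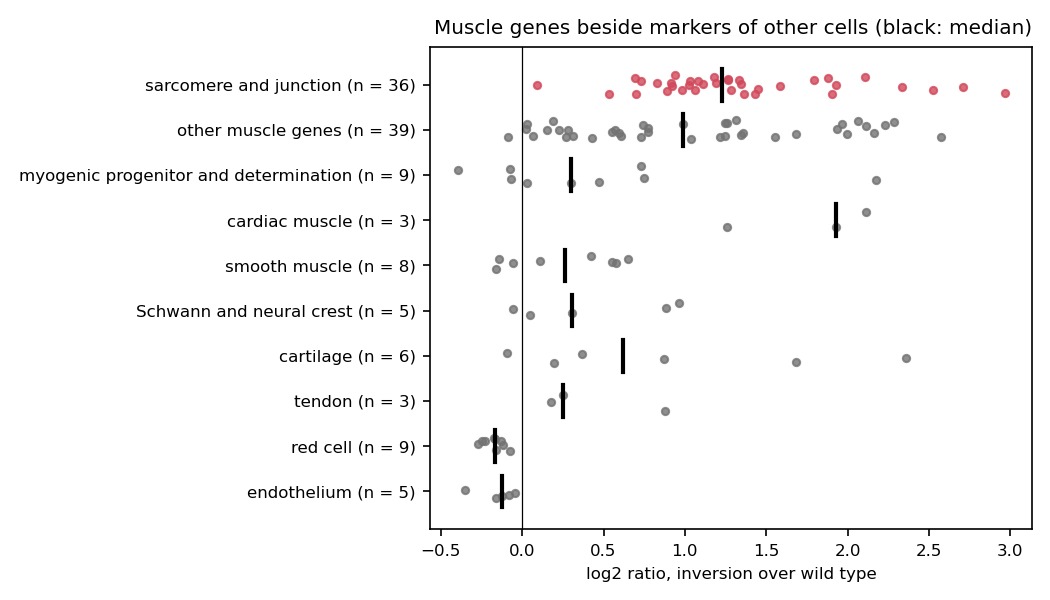
Log2 ratio of inversion over wild type (x axis) of each gene with a mean of at least 10 in the sarcomere and junction list (red) and in lists of other muscle genes and of other cell types (grey), with the median as a black bar. The sarcomere and junction genes have a median of 1.23, other muscle genes 0.99 and the 3 cardiac genes 1.93, while smooth muscle has 0.26 and progenitor genes 0.30. Cartilage has a median of 0.62, and the red cell and endothelial lists lie below 0.

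At the level of single transcripts, 74 transcripts of these genes had a mean of at least 10. Of these, 70 were higher and 4 lower in the inversion library, and 48 were at least 2-fold higher, against 6.66% of all transcripts. The 59 protein-coding transcripts had a median log2 ratio of 1.15, against -0.03 for all protein-coding transcripts. The 6 with a retained intron had a median of 1.12, in a class whose median over all genes was 0.20. Several of the genes overlap exons of a gene on the opposite strand. The overlapped gene was counted with more reads than the muscle gene for Tnnc2 (Ube2c, 403 and 398 reads), Mybph (Adora1, 93 and 146 reads) and Atp2a1 (Rabep2, 356 and 434), and whether the counting used the strand is not given in the sources used here.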

How the data were processed

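Distal forelimbs were profiled by stranded poly(A) RNA-seq, 1 library per genotype. The authors mapped 100-bp reads to NCBIM37 (mm9) with the HTSstation pipeline, and the submitters' processing notes name Bowtie2. The deposited signal columns hold reads per transcript scaled by a size factor for each library, and transcripts without reads, written as 0.5, were set to 0. The deposited fold ratios, log2 values, p-values and adjusted p-values, and the mean of both libraries, were not used. Undoing the scaling gave whole reads (within 0.0051) for 100% of the values.

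Reads of transcripts with the same symbol and chromosome were added up as 1 gene. The authors' scaling was kept, and a log2 ratio with a pseudocount of 1 was taken, which understates the change of low genes. Genes with a mean of at least 10 were counted at 2-fold. Intervals (95%, exact Clopper-Pearson, without the pseudocount) were computed from the share of a gene's reads that came from the inversion library, and so reflect counting error alone. An exact binomial test on reads, adjusted by Benjamini-Hochberg over all genes, was added after seeing the data.

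Transcript lengths and classes and gene order come from GENCODE M21 (GRCm38), another build, matched by transcript identifier for 88.1% of transcripts (150 of 162 for the muscle genes). No coordinate was converted. The length of a gene is the mean over its transcripts weighted by reads.

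The genes and lists were chosen with earlier results of these data known. All genes of the list are named, with intervals at least for Chrna1, the 5 highest, the 5 lowest, the 5 highest per kb and the junction genes. The 3 highest and 3 lowest of the other muscle genes are also named. Other genes named were chosen after their values were seen.

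In a simulation with 23157 genes, all 200 genes given a 4-fold change were recovered at 2-fold, and 45 of 16543 unchanged genes were called higher and 44 lower. Both simulated libraries were drawn with counting error alone around the same means, and the changed genes were taken above a minimum number of reads. The simulation thus holds no variation between pools, and its error rate does not carry over to these libraries. Software: Python 3.11.15 with pandas 2.3.3, numpy 2.4.6, matplotlib 3.10.9 and scipy 1.17.1.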

Additional observations from a re-analysis of the deposited data

How the results depend on the processing

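No paired analysis was possible because each genotype has 1 library. The median log2 ratio of the muscle genes lay between 1.17 and 1.27 with other scalings (total, upper quartile), other pseudocounts (0.1, 5), without the filter or with one at 100, with the top transcript of each gene, and with coding transcripts alone. Under these settings the ratio of Chrna1 lay between 0.89 and 0.95, and between 0.26 and 0.35 below the median of the other genes. The count at least 2-fold higher was 12 of 16 genes averaging 100 or more, since fewer genes were tested, against 1.17% of all such genes. Under the other settings it was between 22 and 26, against 3.03% to 8.60% of all genes, the latter without a filter. A threshold of 4-fold was passed by 5 genes (0.674% of all) and one of 1.5-fold by 34 (9.41%), and the count of lower genes was 0 in each. By the exact binomial test 29 of 36 genes were higher at an adjusted p under 0.05, against 12.3% of all genes, and 0 were lower. The summed log2 ratio lay between 1.12 and 1.22. With the filter at 100 the thick filament median was 1.36. Of 216 values of single genes under an alternative, 213 stayed within their counting interval and 0 changed sign. The 3 others used the top transcript, and were Ttn (3.45), Tpm2 (0.30) and Myl4 (0.22). Depth limits Cacna1s, Nrap, Chrnd, Myh7, Cav3, Tnnc2 and Musk, which had 14 reads or fewer in wild type.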
